A study of Mus musculus with 9 samples.

Results

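Mitochondrial ribosomal protein genes were followed in bulk RNA-seq of mouse ventral hippocampus. They were taken as every gene whose symbol starts with Mrpl or Mrps followed by a digit, pseudogenes excepted, with a mean of at least 1 CPM (counts scaled to a common library size) over 9 libraries. Of 40213 genes in the count files, 78 met this rule: 49 Mrpl genes and 29 Mrps genes. No gene with such a symbol fell below the minimum, and all 78 were among the 16106 genes tested.

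The libraries came from male wild-type mice of strain C57BL/6J, housed from an age of 8 weeks, with 3 mice in each of 3 groups. Sedentary mice without treatment are called SED. Stress-susceptible mice (SUS) had been held in ventilated tubes for 2 hours a day on 14 days, and a further group of stress-susceptible mice (SUS_LE) then ran on a treadmill at low intensity for 2 weeks. How susceptibility was scored is not given in the sources used here, and no group holds stressed mice that were not susceptible or exercised mice that were not stressed. The comparison of SUS with SED asks what accompanies restraint and susceptibility together, which these groups cannot separate. That of SUS_LE with SUS asks what accompanies exercise after both. The SUS libraries enter both of these comparisons and the SED libraries enter those of both stressed groups with controls, so the comparisons are not independent. Each library is labelled as a separate mouse, and all carry the same batch number.

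The mitochondrial ribosome translates the few messenger RNAs encoded in mitochondrial DNA, all of which specify core subunits of the respiratory chain and ATP synthase. Its ribosomal RNAs are made inside the organelle, whereas its proteins are encoded in the nucleus, made in the cytosol and imported. Some of these proteins descend from bacterial ribosomal proteins and others were added in the mitochondrial lineage, and neurons, with their high demand for ATP, depend on the products of this ribosome.

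No mitochondrial ribosomal protein gene differed between groups at an adjusted p under 0.05. In SUS against SED, 54 of the 78 genes had a higher value in SUS, with a median log2 fold change of 0.07, and single genes lay between -0.22 and 0.27. In SUS_LE against SUS, 35 genes were higher and 43 lower, with a median of -0.03 and a range from -0.40 to 0.28. The smallest p was that of Mrpl11, a protein of the large subunit's factor-binding stalk, which was lower in all 3 SUS_LE mice than in any SUS mouse.

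Library totals ran from 14172344 to 15582304 counts, of which the 78 genes took 22585 to 25119 counts per library, or 0.158% to 0.165%. The median gene had a mean count of 277, at which counting alone gives a coefficient of variation of 6.01%. Choroid plexus RNA varied widely between libraries. The summed CPM of 20 choroid plexus markers was 4612 to 6687 in SED, 167 to 8941 in SUS and 259 to 2377 in SUS_LE, and no marker was at 0 in any library. SUS 1, SUS_LE 1 and SUS_LE 3 were the 3 lowest. Without these 3 libraries, 53 of the 78 genes were higher in SUS than SED (median 0.05) and 39 higher in SUS_LE than SUS (median -0.0061), the single SUS_LE library left being assumed to vary like the other groups. Summed CPM of 15 neuronal markers ran from 12712 to 13095 in SED, 12684 to 14017 in SUS and 13075 to 14012 in SUS_LE. In bulk tissue, fewer cells of a type and less RNA per cell cannot be told apart.

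The 78 genes were expressed at moderate levels. Mean CPM ran from 5.08 to 54.9 with a median of 19.0, so the highest gene was 10.8 times the lowest. Divided by transcript length, the order of levels was led by Mrpl42, a large-subunit protein without a bacterial counterpart, with 59.5 CPM per kb. Mrps21, a small-subunit protein with a bacterial counterpart, followed with 55.3 CPM per kb, and Mrpl41, a mitochondria-specific protein of the large subunit, with 43.7 CPM per kb. The lowest were Mrps35 with 3.67, Mrpl17, a protein near the peptide exit tunnel, with 3.30, and Mrpl47, also near the tunnel, with 2.71 CPM per kb. These values use the longest principal transcript. The shortest principal transcript was a choice added after the data were seen. With it, Mrps21 stood at 66.7, Mrpl30 at 62.5, Mrpl42 at 59.9 and Mrpl41 at 43.7 CPM per kb. Mrpl30 had 37.8 with the longest transcript, and Mrps17 went from 4.42 to 26.9 CPM per kb. The order, at the top and below it, therefore depends on the transcript chosen. Transcripts of the 78 genes were 418 to 7300 bases long.

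**Figure D1:**
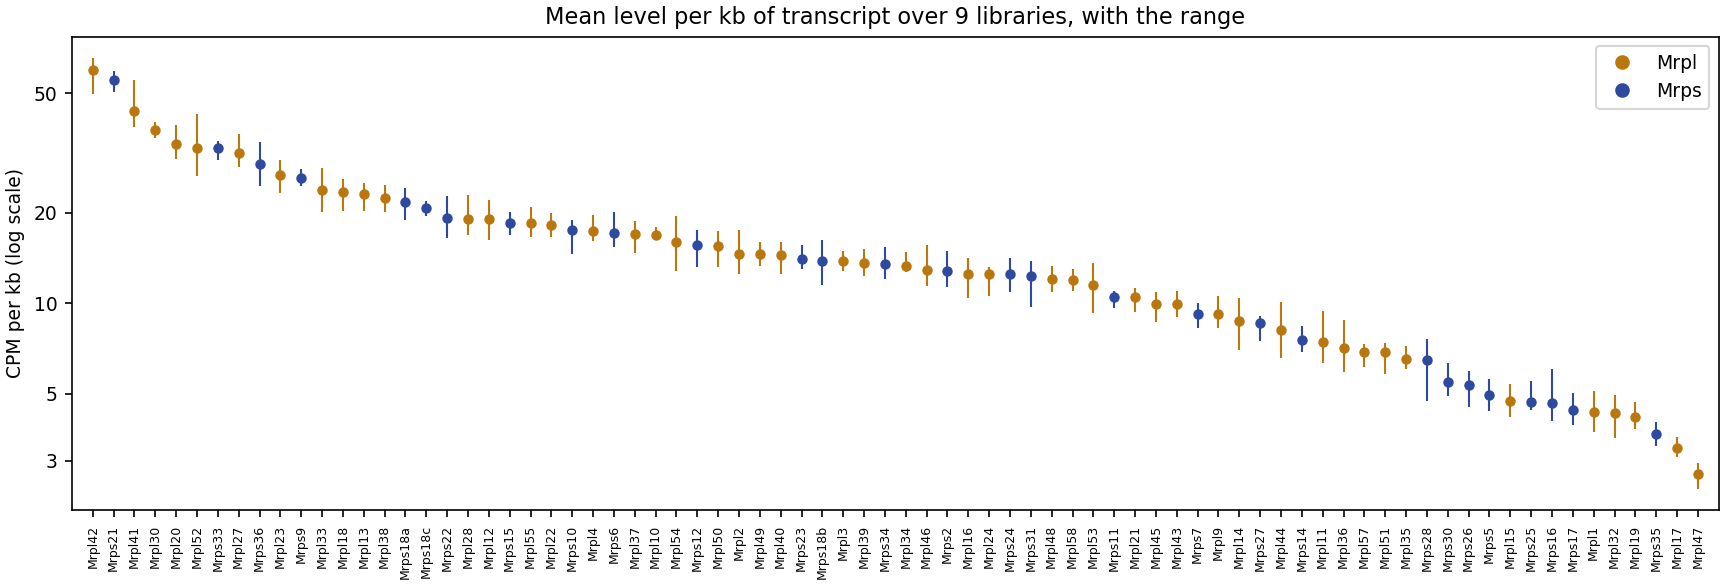
Mean CPM per kb of transcript (log scale) of each of the 78 genes, ordered from high to low; points are means over 9 libraries, vertical lines run from the lowest to the highest library, and colour separates Mrpl from Mrps symbols. The range within a gene is small beside the span from 59.5 (Mrpl42) to 2.71 (Mrpl47), and Mrpl and Mrps genes are interleaved.

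Spread between mice of a group differed between genes. The pooled within-group SD of log2 CPM had a median of 0.10 over the 78 genes, against 0.13 over all tested genes. Mrpl3, a core protein of the large subunit near the peptidyl transferase centre, was the steadiest with an SD of 0.04. Its CPM was 53.7, 53.1 and 54.2 in SED, 53.7, 55.0 and 50.7 in SUS, and 59.3, 56.2 and 58.3 in SUS_LE. The 3 SUS_LE values of Mrpl3 lay above all other libraries, by 1.08-fold over SED, with an edgeR adjusted p of 0.774. Mrps28, a small-subunit protein and the least abundant by CPM, was the most variable with an SD of 0.22. Its CPM was 5.41, 3.71 and 5.34 in SED, 4.26, 5.62 and 5.28 in SUS, and 5.95, 5.002 and 5.17 in SUS_LE. The groups of Mrps28 overlapped in every comparison.

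The summed output of the 78 genes differed little. It was 1592 ± 22.3 CPM (SD, n = 3) in SED, 1639 ± 15.4 in SUS and 1622 ± 22.5 in SUS_LE. By library it was 1586, 1617 and 1574 in SED, 1647, 1649 and 1621 in SUS, and 1596, 1632 and 1638 in SUS_LE. Every SUS library lay above every SED library, and SUS_LE overlapped both. The ratio of summed Mrpl to summed Mrps CPM was 1.86, 1.99 and 1.86 in SED, 1.92, 1.89 and 1.88 in SUS, and 1.90, 1.89 and 1.90 in SUS_LE. The 3 groups overlapped in this ratio. Correlations between single genes across the 9 libraries were low. Over 3003 pairs of genes the median Pearson correlation of log2 CPM was 0.041, and 0.018 after group means were removed. The median correlation of the 78 genes with all tested genes was 0.0005, with cytosolic ribosomal protein genes 0.11 and with nuclear respiratory chain genes 0.11. At the median gene the counting error of 6.01% stands beside a total within-group spread of 7.17%, which includes that error. What counting noise leaves of any shared variation was not tested. These are correlations over 9 libraries that share depth and scaling, given as a description.

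In SUS against SED, edgeR called 0 of 16106 genes (0%) and 0 of the 78. At an unadjusted p under 0.05, 5 of the 78 were higher, against 6.83% of all tested genes, and 2 were lower, against 6.26%. DESeq2 called 163 genes (1.01%) and limma voom 0, and neither called any of the 78. DESeq2 gave an adjusted p to only 3 of them and to 4865 of all 16106 genes, since its filter on low counts left out the rest. The share of the 78 with a higher value in SUS was 69.2%, beside 49.9% of all tested genes. The 2 groups did not overlap in 10 genes that were higher in SUS and in 5 that were lower, where all tested genes gave 9.72% and 8.56%. Neither share is far from that background.

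In each role group more genes were higher than lower in SUS. Of 30 large-subunit proteins with a bacterial counterpart, 21 were higher in SUS, with a median log2 fold change of 0.11. Of 21 large-subunit proteins specific to mitochondria, 14 were higher, with a median of 0.05. In the small subunit, 11 of 16 with a bacterial counterpart were higher (median 0.06), and 7 of 10 specific to mitochondria (median 0.07). Mrps36 belongs to none of these, as it was later assigned to the 2-oxoglutarate dehydrogenase complex. The median over all tested genes was 0.00 to 2 decimals.

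**Figure D2:**
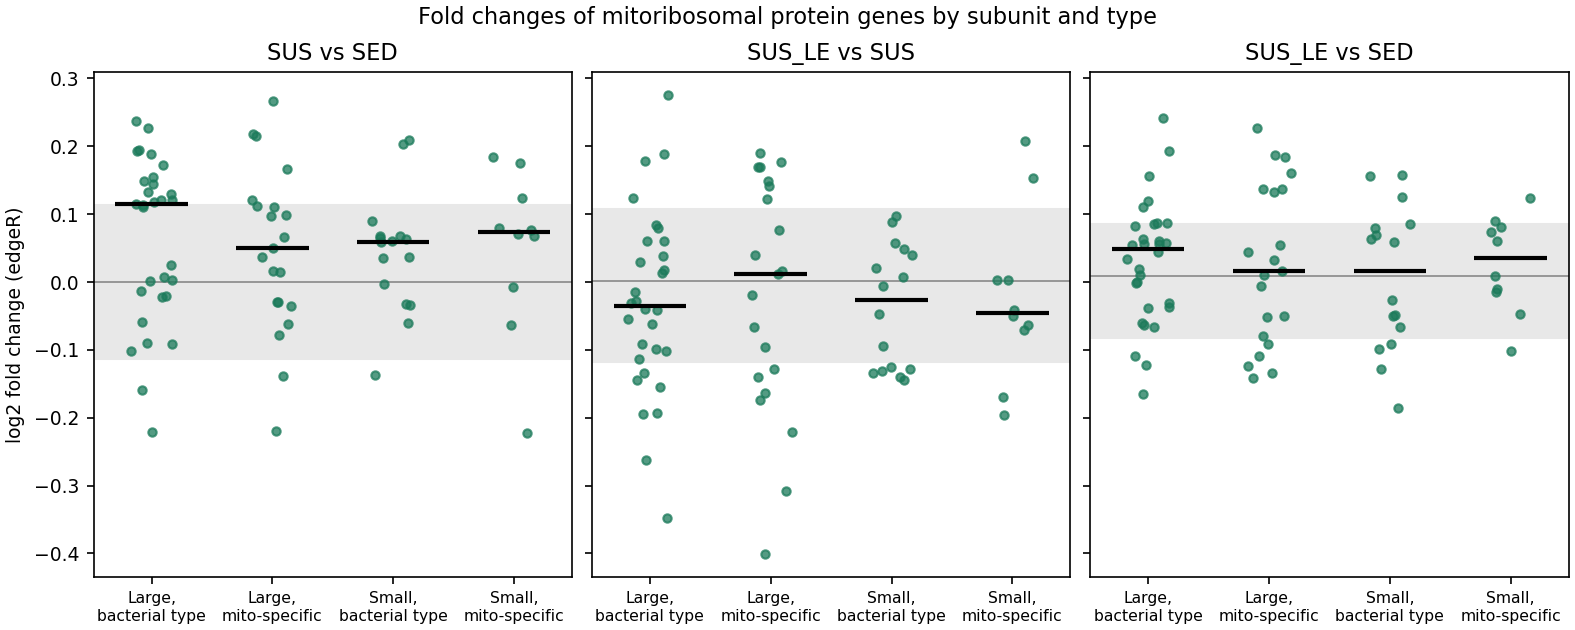
Log2 fold change of each gene (points) in 3 comparisons, by subunit and by whether the protein has a bacterial counterpart; black bars are medians, the grey band is the interquartile range of all 16106 tested genes and the grey line their median. In SUS vs SED all 4 medians lie above 0, from 0.05 to 0.11, while single genes run from -0.22 to 0.27.

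Among the genes higher in SUS, the smallest p was that of Mrpl38, a protein of the central protuberance of the large subunit. Its CPM was 28.8, 31.0 and 30.1 in SED, and 34.8, 34.6 and 34.9 in SUS. All 3 SUS libraries lay above SED, by 1.16-fold (log2 0.21 ± 0.07 SE, edgeR adjusted p = 0.209). Mrps5, a small-subunit protein with a bacterial counterpart, had 22.0, 19.7 and 20.6 CPM in SED and 23.6, 25.1 and 23.0 in SUS. Those groups did not overlap either, with a difference of 1.15-fold (edgeR adjusted p = 0.313). Mrpl28, the counterpart of a bacterial large-subunit protein, had 18.3, 20.7 and 20.1 CPM in SED and 24.5, 22.0 and 21.2 in SUS. The ranges of Mrpl28 were separate, at 1.14-fold and an edgeR adjusted p of 0.357. Mrpl11, also among those with the smallest p, was 1.18-fold of SED (log2 0.24 ± 0.09 SE, edgeR adjusted p = 0.285), but its groups overlapped.

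The genes with lower values in SUS were fewer and came from both subunits. Mrpl50, a mitochondria-specific protein of the large subunit, had 34.1, 36.9 and 34.3 CPM in SED and 30.2, 32.3 and 27.9 in SUS. Every SUS library lay below SED, at 0.858-fold (log2 -0.22 ± 0.08 SE, edgeR adjusted p = 0.222). Mrps22, a mitochondria-specific protein of the small subunit whose loss causes mitochondrial disease in humans, had 27.2, 23.6 and 22.2 CPM in SED and 19.7, 21.9 and 20.8 in SUS. The Mrps22 groups were separate by a narrow margin, at 0.857-fold and an edgeR adjusted p of 0.285. Mrpl1, the protein of the mobile stalk where spent tRNA leaves, had 14.2, 18.2 and 15.6 CPM in SED and 14.0, 13.3 and 13.9 in SUS. Its SUS libraries lay just below the lowest SED library, at 0.858-fold with an edgeR adjusted p of 0.384. Mrpl57, a mitochondria-specific large-subunit protein, was at 0.908-fold with separate groups and an edgeR adjusted p of 0.512.

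In SUS_LE against SUS, edgeR again called 0 of 16106 genes (0%) and 0 of the 78. At an unadjusted p under 0.05, 5 of the 78 were higher, against 7.2% of all tested genes, and 7 were lower, against 6.49%. DESeq2 called 180 genes (1.12%) and limma voom 0, none of them among the 78. A DESeq2 adjusted p was given to 7 of the 78 and to 5489 of all tested genes. The groups did not overlap in 7 genes that were higher in SUS_LE and 10 that were lower, beside 8.61% and 8.38% of all tested genes. Higher values were found for 44.9% of the 78 and 50.3% of all tested genes. By role, 12 of 30 large-subunit proteins with a bacterial counterpart were higher, as were 11 of 21 specific to mitochondria, 7 of 16 small-subunit proteins with a bacterial counterpart and 4 of 10 without.

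The factor-binding stalk, which recruits translation factors to the ribosome, held the smallest p. Mrpl11, at its base, had 20.6, 24.3 and 20.5 CPM in SED, 28.7, 23.9 and 24.5 in SUS, and 20.2, 19.4 and 21.1 in SUS_LE. All SUS_LE libraries lay below all SUS libraries, at 0.786-fold (log2 -0.35 ± 0.09 SE, edgeR adjusted p = 0.138). Adjusted p for Mrpl11 over the alternatives ran from 0.0234 to 0.465, and it passed the threshold without the filter on low counts (0.0259) and with choroid plexus content as a covariate (0.0234). Mrpl12, the stalk protein that contacts the factors, had 29.1, 24.3 and 27.3 CPM in SUS and 21.4, 24.6 and 24.7 in SUS_LE. Those ranges overlapped, at log2 -0.19 ± 0.09 SE with an edgeR adjusted p of 0.364. With the trends in GC content and length removed, as described below, Mrpl12 stood at -0.10. Mrpl10, which anchors Mrpl12, had 29.0, 28.8 and 28.9 CPM in SUS and 27.7, 30.7 and 29.3 in SUS_LE, a log2 difference of 0.02. Estimates for the 3 stalk proteins thus ran from -0.35 to 0.02, and no difference between these genes was tested.

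The other 3 named genes with low values in SUS_LE encode large-subunit proteins. Mrpl38 had 31.3, 29.8 and 28.5 CPM in SUS_LE, below all SUS libraries and within 0.01 log2 of SED, with an edgeR adjusted p of 0.178 against SUS. Mrpl28 had 19.0, 18.1 and 19.4 CPM in SUS_LE, 0.834-fold of SUS (edgeR adjusted p = 0.2). Mrpl54, a short mitochondria-specific protein, had 11.1, 8.27 and 8.58 CPM in SED, 10.0, 11.8 and 11.8 in SUS, and 8.08, 7.73 and 9.67 in SUS_LE. Its log2 fold change of -0.40 against SUS was the lowest of the 78, with an SE of 0.14 and an edgeR adjusted p of 0.216.

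Genes with higher values in SUS_LE included both Mrpl1 and Mrps22, which were low in SUS. Mrpl1 had 16.6, 17.0 and 16.3 CPM in SUS_LE, 1.21-fold of SUS (edgeR adjusted p = 0.264), with separate groups. Mrps22 had 23.9, 23.6 and 24.6 CPM in SUS_LE, 1.15-fold of SUS (edgeR adjusted p = 0.311). As the SUS libraries are shared, low SUS values enter both differences. Mrpl39, a mitochondria-specific large-subunit protein, had 30.2, 28.5 and 32.3 CPM in SED, 28.9, 31.9 and 28.3 in SUS, and 34.7, 32.7 and 34.2 in SUS_LE. SUS_LE lay above both other groups, at 1.14-fold of SUS (edgeR adjusted p = 0.279) and 1.12-fold of SED (edgeR adjusted p = 0.746). Mrpl18, a protein of the central protuberance, had 24.8, 27.0 and 28.1 CPM in SUS and 29.5, 30.1 and 31.5 in SUS_LE. Its groups were separate, with an edgeR adjusted p of 0.281.

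**Figure D3:**
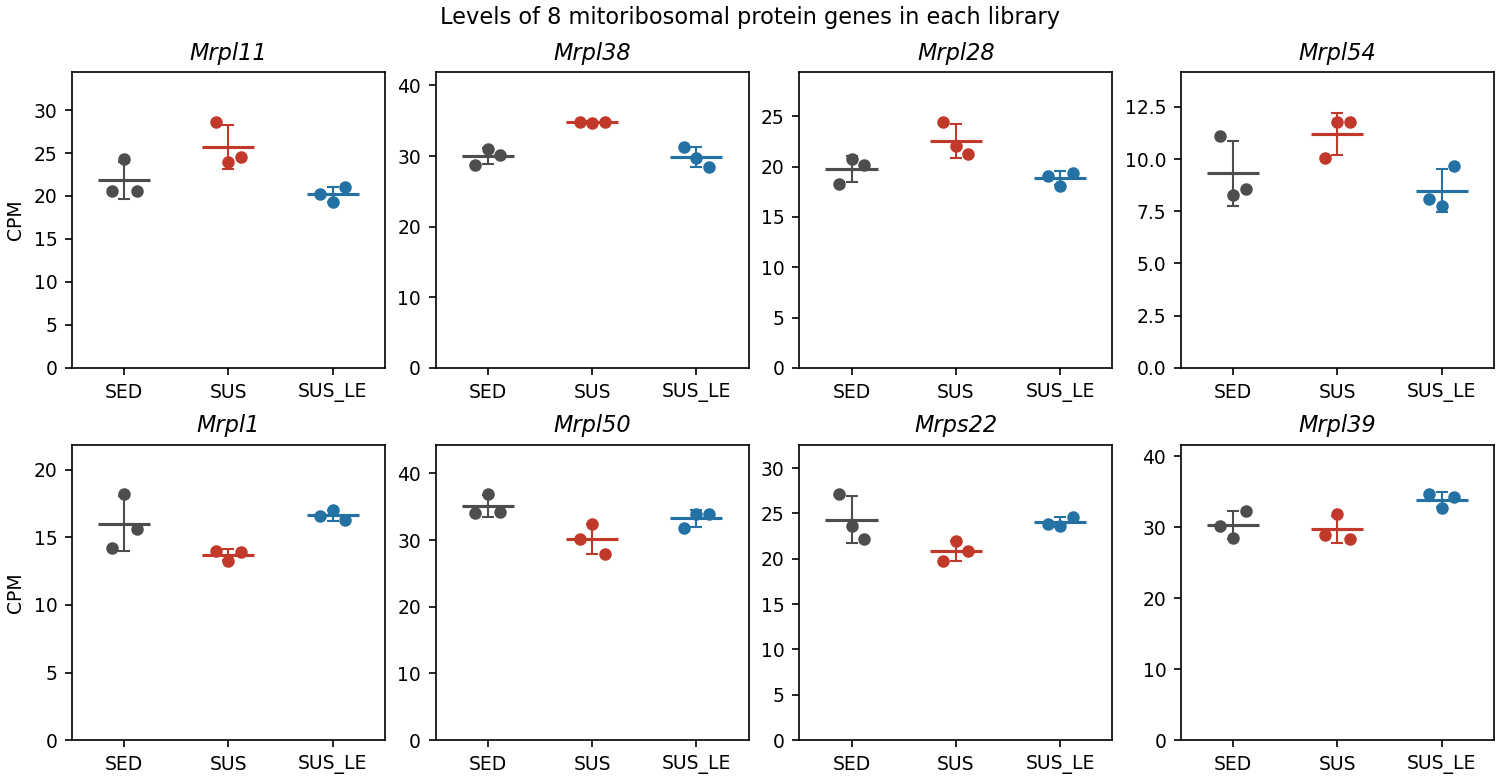
CPM of 8 genes in each library, by group; points are single mice, horizontal lines group means and vertical bars the SD (n = 3). Mrpl11, Mrpl38, Mrpl28 and Mrpl54 have their highest means in SUS, Mrpl1, Mrpl50 and Mrps22 their lowest, and all 3 SUS_LE libraries of Mrpl39 (32.7 to 34.7) lie above the other 6.

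In SUS_LE against SED, edgeR called 0 of 16106 genes (0%) and 0 of the 78, DESeq2 16 genes (0.0993%) and limma voom 0, with none of the 78 in either. At an unadjusted p under 0.05, 1 of the 78 was higher, against 2.79% of all tested genes, and 0 were lower, against 3.86%. That gene was Mrpl39. Higher values were found for 46 of the 78 (59%), beside 52.9% of all tested genes, with a median log2 fold change of 0.04. The groups did not overlap in 7 higher and 1 lower gene, beside 7.54% and 8.64%. Mrps30, which despite its symbol sits in the large subunit, had 19.1, 16.4 and 16.6 CPM in SED and 18.4, 20.98 and 19.8 in SUS_LE, and the ranges overlapped (edgeR adjusted p = 0.766). Mrpl19, a large-subunit protein with a bacterial counterpart, was 1.11-fold of SED with separate groups (edgeR adjusted p = 0.779). The lowest by p were Mrpl15 at 0.892-fold, Mrps6 at 0.879-fold, Mrpl37 at 0.917-fold and Mrpl11 at 0.927-fold, each with overlapping groups.

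The test for any difference among the 3 groups called 0 of 16106 genes (0%) in edgeR, and 8 of the 78 had an unadjusted p under 0.05, beside 13.5% of all tested genes. DESeq2 called 193 genes (1.2%) in that test, none of the 78, and how many of the 78 had an adjusted p there is not given here.

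The 3 Mrps18 paralogues occupy different places: Mrps18c in the small subunit at the bacterial S18 position, Mrps18b elsewhere in the small subunit and Mrps18a in the large subunit. Mrps18c was nearly level, with 13.4, 13.7 and 13.1 CPM in SED, 14.0, 12.5 and 12.7 in SUS and 12.9, 13.5 and 13.003 in SUS_LE. Mrps18b had 16.01, 13.3 and 12.4 CPM in SED, 16.4, 17.5 and 13.3 in SUS and 14.4, 15.1 and 15.998 in SUS_LE. Mrps18a had 18.4, 20.7 and 16.7 CPM in SED, 21.4, 18.1 and 20.1 in SUS and 19.6, 18.4 and 19.0 in SUS_LE. Groups overlapped for all 3 paralogues in all 3 comparisons. Of 6 proteins of the exit tunnel and membrane anchor, 5 were higher in SUS than SED, the exception being Mrpl47 (log2 -0.16). Of 8 proteins of the central protuberance, 5 were higher, among them Mrpl38 and Mrpl46, and 3 lower, Mrpl18, Mrpl27 and Mrpl48. Mrps36 had 18.4, 17.2 and 20.95 CPM in SED, 18.8, 24.2 and 19.1 in SUS and 20.0, 23.9 and 20.9 in SUS_LE, with overlapping groups. Its SUS to SED difference rested on SUS 2: log2 0.13 with it, and -0.00042 without.

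In the comparisons that involve SUS, fold changes followed base composition. Across all tested genes with an annotated transcript (91.3%), the log2 fold change of SUS against SED had a Spearman correlation of 0.37 with GC content, and over the 78 genes 0.38. For SUS_LE against SUS the values were -0.39 and -0.51. For SUS_LE against SED they were -0.03 and -0.28, and the value of the 78 genes was still -0.28 after the removal of GC and length trends described next. With transcript length, Spearman correlations over all tested genes were -0.23, 0.12 and -0.14 in these comparisons, in the same order. Over the 78 genes they were -0.15, 0.20 and 0.14. Medians for the 78 and for all tested genes were 1302 and 3044 bases in length, and 50.4% and 50.2% in GC content. The removal described next takes out both trends together, and their parts were not separated. All these correlations are across genes, which are not independent replicates and share libraries. Among 39 of the 78 with a GC content at or above the median of all genes, 50.2%, 33 were higher in SUS (all genes 65.2%), and among the 39 below it 21 were (all genes 34.1%). In SUS_LE against SUS the counts were 10 of 39 and 25 of 39, where all genes gave 34.1% and 67.6%. Mrpl38, Mrpl28 and Mrpl54 have GC contents of 59.6%, 58.2% and 60.4%, whereas Mrpl1, Mrpl50 and Mrps22 have 41.6%, 42.3% and 45.8%. Mrpl11, at 48.8%, lies near the middle.

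With each library's trends in GC content and length removed, 48 of the 78 were higher in SUS than in SED, with a median of 0.05, where 54.8% of all genes were higher. In SUS_LE against SUS, 37 were higher, with a median of -0.02. At an unadjusted p under 0.05 there were then 6 of the 78 in the first comparison (8.76% of all genes) and 4 in the second (8.61%). Only 3 of those 6 were among the 7 before removal, Mrpl11, Mrps5 and Mrps22, and 3 of the 4 were among the 12 before, Mrpl11, Mrpl18 and Mrpl39. Several differences shrank by over 1.5 times. In SUS against SED, Mrpl38 went from 0.21 to 0.11 on the log2 scale, Mrpl28 from 0.20 to 0.09, Mrpl1 from -0.22 to -0.13 and Mrpl57 from -0.14 to -0.06. Between SUS_LE and SUS, Mrpl38 went from -0.22 to -0.10, Mrpl28 from -0.26 to -0.15 and Mrpl1 from 0.28 to 0.18. Mrpl11 stood at -0.37 in that comparison after removal, against -0.35 before. In SUS against SED, the 3 genes with an unadjusted p under 0.05 only after removal had grown. Mrpl17 went from 0.12 to 0.23 on the log2 scale, Mrpl19 from 0.17 to 0.24 and Mrps15 from -0.14 to -0.21. Over all genes, each library's deviation from the mean followed GC content most strongly upwards in SUS 1 and SUS 3, with Spearman correlations of 0.44 and 0.24. In SUS 2 the correlation was 0.06. Every SED and SUS_LE library had a negative value, the strongest being -0.26 in SED 1 and -0.24 in SUS_LE 3.

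**Figure D4:**
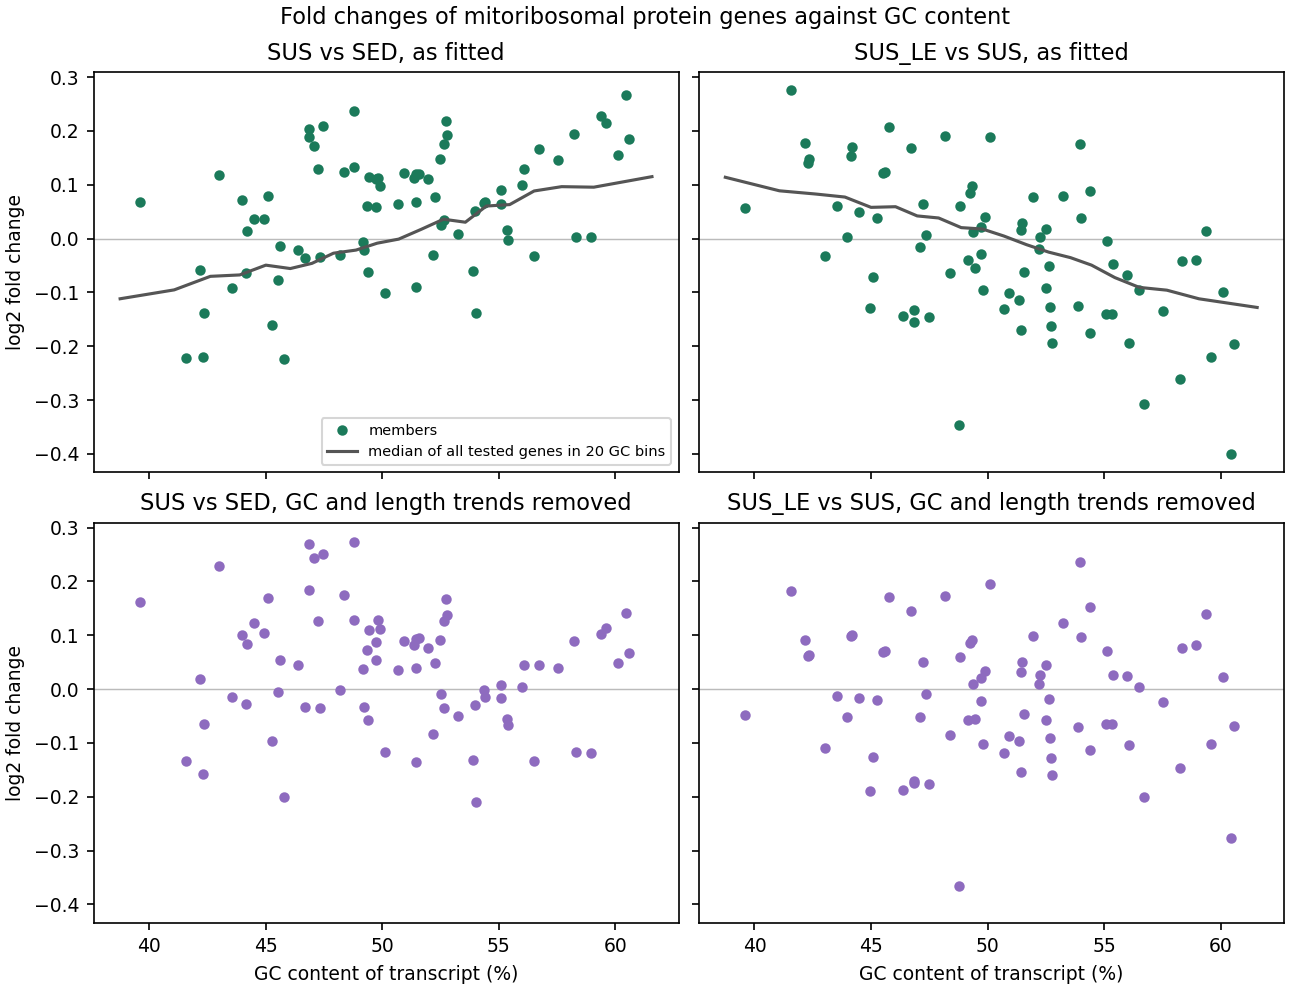
Log2 fold change of the 78 genes (points) against the GC content of their transcript, as fitted (top) and with per-library GC and length trends removed (bottom), for 2 comparisons; the grey line is the median of all tested genes in 20 GC bins. As fitted, the points slope with the grey line (Spearman 0.38 and -0.51), and after removal the correlations are nearer to 0 (-0.14 and -0.10).

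Proteins of the mitochondrial ribosome that carry other symbols were listed under 7 names, of which 5 matched a tested gene: Dap3, Ptcd3, Chchd1, Aurkaip1 and Gadd45gip1. The other 2, Ict1 and Mrp63, are older symbols of Mrpl58 and Mrpl57. In SUS 4 of these 5 were higher than in SED, and in SUS_LE 0 of 5 were higher than in SUS, with a median log2 fold change of -0.18. Dap3, a GTP-binding small-subunit protein, had 46.6, 39.2 and 37.6 CPM in SED, 51.1, 48.3 and 43.7 in SUS and 45.2, 40.9 and 43.1 in SUS_LE, with an edgeR adjusted p of 0.276 for SUS against SED. Aurkaip1, a small-subunit protein, had 39.7, 38.2 and 40.8 CPM in SUS and 32.8, 34.8 and 34.2 in SUS_LE. Its groups were separate at 0.858-fold, with an edgeR adjusted p of 0.183.

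The machinery around the ribosome was mixed, with 0 genes called by edgeR in any comparison. Of 26 tested genes for ribosome assembly and rRNA modification, 13 were higher in SUS than SED and 14 higher in SUS_LE than SUS. The corresponding counts were 8 and 9 of 16 translation factors and activators, 8 and 13 of 20 mitochondrial aminoacyl-tRNA synthetases, and 7 and 7 of 11 genes of mitochondrial DNA transcription and replication. Tufm, the mitochondrial elongation factor that delivers aminoacyl-tRNA, had 36.2, 32.5 and 34.3 CPM in SUS and 26.8, 28.3 and 30.6 in SUS_LE (edgeR adjusted p = 0.152). Vars2, the valyl-tRNA synthetase, had 17.2, 17.3 and 18.7 CPM in SUS and 14.1, 13.6 and 12.9 in SUS_LE (edgeR adjusted p = 0.124). Both had separate groups, SUS_LE being lower. Lars2, the leucyl-tRNA synthetase, went the other way, with 1344, 1509 and 1440 CPM in SED, 1150, 1026 and 1064 in SUS, and 1294, 1285 and 1758 in SUS_LE. SUS lay below both other groups in every library, with an edgeR adjusted p of 0.169 for SUS_LE against SUS. The median mean CPM of the 20 synthetases was 14.5, so Lars2 lay far above its list. Whether all reads counted for Lars2 come from its mRNA was not tested. Nsun4, which methylates the small-subunit rRNA, was 1.28-fold higher in SUS_LE than SUS with separate groups (edgeR adjusted p = 0.319). Mpv17l2, of the same assembly list, was lower in SUS_LE than SUS (log2 -0.45, and -0.59 to -0.09 over the alternatives). Guf1, of the translation factors, was higher in that comparison (log2 0.15). Of the genes of mitochondrial DNA transcription and replication, Tefm was lower in SUS than SED (log2 -0.36). Tfb2m was higher in SUS_LE than SED (log2 0.14).

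Values of 3 reference lists are given beside those of the mitochondrial ribosomal genes. In SUS against SED, 70 of 77 cytosolic ribosomal protein genes were higher (median 0.11), as were 66 of 80 nuclear genes of the respiratory chain (median 0.08), but 2 of 13 mitochondrially encoded mRNAs (median -0.11). In SUS_LE against SUS, the counts were 36 of 77, 26 of 80 and 12 of 13. In SUS_LE against SED they were 71 of 77 (92.2%), 59 of 80 (73.8%) and 12 of 13 (92.3%), all above the 59% of the 78 genes. Summed CPM of the 13 mitochondrial mRNAs, the templates of this ribosome, was 133162, 132463 and 133756 in SED, 121230, 131761 and 121699 in SUS, and 139225, 136888 and 149523 in SUS_LE. The 3 groups did not overlap in that sum, SUS being lowest and SUS_LE highest. The summed CPM of the 78 genes had the opposite order of SUS and SED, as given above. No difference between lists was tested. Median transcript length was 886 bases for the cytosolic ribosomal list, 838 for the nuclear respiratory chain list and 1302 for the 78 genes. Values of the reference lists are as fitted, without removal of GC and length trends. Beside these values, 12 of 15 neuronal markers were higher in SUS than SED and 0 of 12 oligodendrocyte markers were. Summed CPM of the oligodendrocyte markers was 3216 to 3438 in SED, 2708 to 3090 in SUS and 2786 to 3437 in SUS_LE. The part of cell composition in the members' values was not tested.

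**Figure D5:**
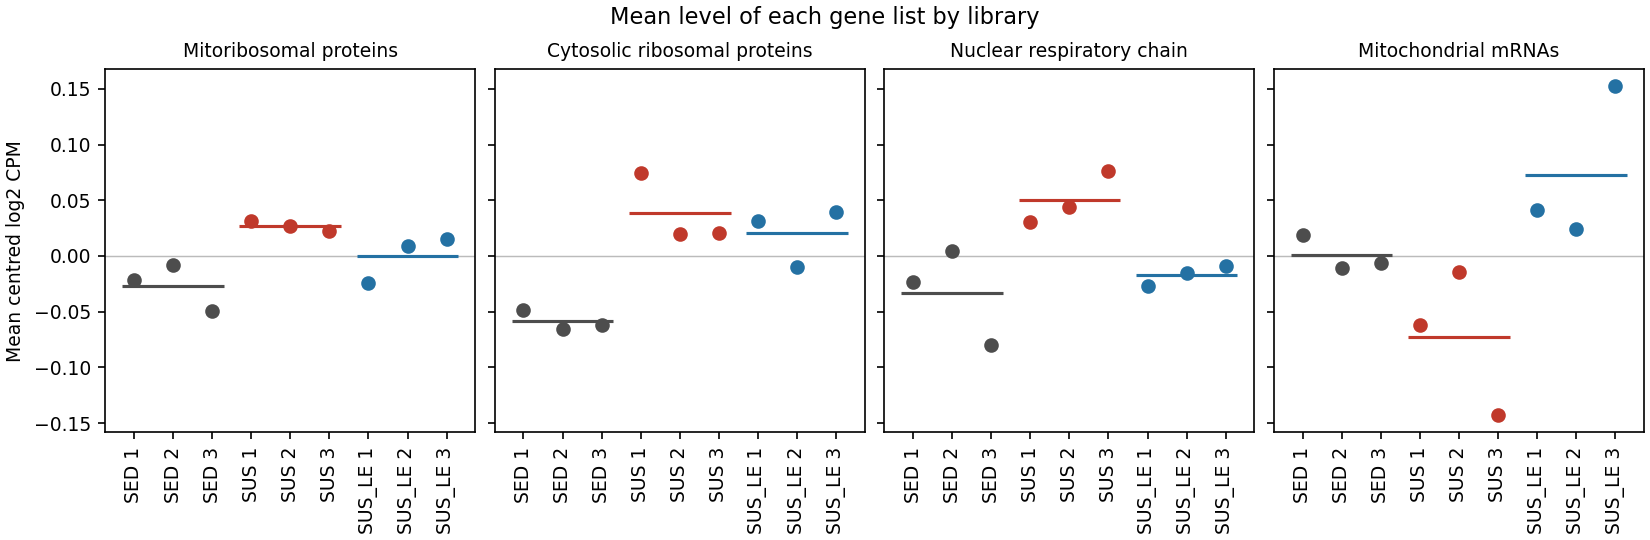
Mean centred log2 CPM of the 78 mitoribosomal protein genes and of 3 reference lists in each library (points, coloured by group), with group means as horizontal lines. The mitoribosomal mean lies between -0.049 and -0.009 in SED and between 0.022 and 0.031 in SUS, a smaller span than that of the mitochondrial mRNAs (-0.143 to 0.153).

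The genes are scattered over 17 chromosomes, at most 11 on any of them, and 23 have a protein-coding neighbour that starts head to head within 1000 bases. Mrpl54 and Apba3 start 26 bases apart, and Mrpl50 and Zfp189 83 bases apart. Exons of 33 of the 78 overlap those of another annotated gene, 28 of them on the opposite strand; Mrpl46 and Mrps11 overlap each other. The strand setting of the counting is not given in the sources used here, so reads of such pairs cannot be told apart. Of the genes followed most closely above, Mrpl11, Mrpl38, Mrpl28, Mrpl1, Mrps22 and Mrpl39 have no overlapping exon. Other genes with values above do overlap another gene, among them Mrpl3, Mrpl12, Mrpl18, Mrpl19 and Mrps18b.

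Promoter sequences from RefSeq (GRCm38.p6, 250 bases before to 50 after the start) matched 69 of the 78 genes by symbol. The ETS core CCGGAAG, read on both strands, was present in 26 of the 69 (37.7%), beside 17.4% of tested genes. The core of the site for NRF1, a transcription factor of nuclear genes for mitochondria, was searched as GCGCATGC on both strands and was present in 8 (11.6%), beside 5.35%. AAGATGG, the YY1 core, was present in 18.8% beside 7.96%, and the SP1 box GGGCGG in 49.3% beside 65.2%. CCAAT (39.1% beside 42.4%), TATAAA (7.25% beside 9.42%) and TGACGTCA (2.9% beside 3.25%) were closer to the background. A match is a description of letters, not a site in use. The 150 bases before the start are given for 4 genes with ETS and NRF1 cores in capitals: Mrps22 and Mrpl39 because their values were separate between groups in a comparison, Mrpl22 because it holds both cores, and Mrpl11, with the smallest p, because this stretch holds neither. They lie at chr9:98601680-98601829 (minus strand), chr16:84735245-84735394 (minus strand), chr11:58171514-58171663 (plus strand) and chr19:4962156-4962305 (plus strand). In Mrpl39 the capitals are 2 overlapping matches, 1 on each strand.
Mrps22: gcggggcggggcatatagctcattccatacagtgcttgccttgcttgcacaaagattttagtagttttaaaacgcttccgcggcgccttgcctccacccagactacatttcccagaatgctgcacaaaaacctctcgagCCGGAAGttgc
Mrpl39: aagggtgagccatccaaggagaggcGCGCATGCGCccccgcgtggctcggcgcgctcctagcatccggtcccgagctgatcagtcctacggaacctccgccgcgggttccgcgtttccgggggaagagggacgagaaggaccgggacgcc
Mrpl22: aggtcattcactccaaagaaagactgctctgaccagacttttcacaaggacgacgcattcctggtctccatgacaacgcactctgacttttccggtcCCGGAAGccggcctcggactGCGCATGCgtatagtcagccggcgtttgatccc
Mrpl11: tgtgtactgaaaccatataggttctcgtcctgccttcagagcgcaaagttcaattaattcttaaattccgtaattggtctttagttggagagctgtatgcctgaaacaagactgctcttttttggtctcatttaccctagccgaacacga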

How the data were processed

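Total RNA of ventral hippocampus was extracted with RNAiso Plus and made into libraries by the CORALL V2 protocol, per the labels' protocols. The authors deposited whole-number counts per gene symbol, 1 file per mouse, without normalization. The tools named are fastp, STAR and Salmon, and the build GRCm39, per the submitters' processing notes. Versions, annotation, strand setting, use of molecular identifiers and any rounding of Salmon estimates are not given in the sources used here. File headers number the exercised libraries differently from the labels, and the labels' numbers are used.

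Counts were analysed in R 4.3.3 with edgeR 4.0.16: expression filter (16106 genes, 99.9% of counts), TMM factors, and a robust quasi-likelihood fit of group over all 9 libraries, with Benjamini-Hochberg adjustment over all tested genes and a threshold of 0.05. The common biological coefficient of variation was 0.0845. DESeq2 1.42.0 and limma 3.58.1 (voom with quality weights), other scalings, filters and covariates, the replicate block and leaving out libraries were alternatives. Log2 CPM used a prior count of 2. Lengths and GC content came from GENCODE M21 transcripts matched by symbol, and trends were removed as splines with 5 degrees of freedom per library. The fits were tested on simulated data. No library was a duplicate. With 3 mice against 3, an exact permutation test cannot go below p = 0.1, so none was used.

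Genes were named if among the 4 lowest p-values in a direction of a comparison, or the 3 highest or lowest per kb, or extreme in spread; always named were Mrpl12, Mrps36 and the Mrps18 paralogues. Of the surrounding lists, genes with the smallest p were named. Mrpl10, Mrpl46, Mrpl22, Mrpl27, Mrpl48, Mrps15, Mrpl30 and Mrps17 were named after their values were seen. The genes and lists were chosen with earlier results of these data known.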

Additional observations from a re-analysis of the deposited data

How the results depend on the processing

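Of 40 gene and comparison pairs named, 39 kept their direction under every alternative run. The exception was Mrps36 in SUS against SED, at -0.000423 without SUS replicate 2 and up to 0.213 without SED replicate 3. Pairs chosen by p were chosen in these same libraries, which the alternatives refit, so a kept direction is no independent check. Mrpl11 in SUS_LE against SUS was the only 1 of the 78 to pass the threshold anywhere, without the low-count filter (1 called, also 1 in the test of any difference) and with the choroid plexus covariate (1 called). Vars2 and Lars2 passed without that filter.

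The median of the 78 in SUS against SED was 0.045 with GC and length trends removed (all genes 0.016). It was 0.046 with the replicate block added (all genes 0.015). In SUS_LE against SUS it was -0.059 with library totals alone (all genes -0.028) and -0.0061 without the 3 libraries lowest in Ttr (all genes -0.0025). In SUS_LE against SED it was 0.016 with library totals alone (all genes -0.013). Leaving out single libraries gave medians of 0.049 to 0.067, -0.038 to -0.022 and 0.022 to 0.047 in these 3 comparisons, taken in that order, 51 to 58, 30 to 36 and 41 to 54 genes higher, and 0 of the 78 called.

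Counts of all genes called moved more. For the 3 comparisons in the same order and then for any difference, DESeq2 called 163, 180, 16 and 193, and no filter gave 297, 430, 218 and 695. Omitting the Ttr-low libraries gave 14, 20, 16 and 30. GC removal with the replicate block gave 2, 5, 1 and 4. The replicate block alone gave 1 in SUS against SED, 1 in SUS_LE against SUS and 1 for any difference. Same-numbered libraries deviated with correlations from -0.12 to 0.18, and differently numbered ones from -0.28 to 0.17. These overlapping ranges cannot tell whether the replicate numbers pair the mice. The choroid plexus covariate gave 424 in SUS_LE against SUS, 2 in SUS_LE against SED and 193 for any difference. Fitting only the 2 groups gave 1 in SUS_LE against SUS and 239 in SUS_LE against SED, and omitting the robust step 1 in each. Leaving out single libraries gave 0 to 74 (highest without SUS 3), 0 to 184 (without SUS 2), 0 to 69 (without SUS 1) and 0 to 86 (without SUS 3). The cause of these changes was not tested. Standard errors of the 78 genes, which include variation between mice, ran from 0.06 to 0.18 on the log2 scale.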
